A study of Mus musculus with 29 samples.

Results

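The interferon regulatory factors are a family of transcription factors named after their first known role, the control of type I interferon genes. The 8 described here are Irf1, Irf2, Irf3, Irf4, Irf5, Irf7, Irf8 and Irf9, taken from the count table by their gene symbols. They are 8 of the 36982 genes in that table, and all 8 were among the 16632 genes that passed the filter on low counts.

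All family members share a DNA-binding domain that recognises repeats of the letters GAAA, and they differ in how they are switched on. IRF3, IRF5 and IRF7 are held inactive in the cytoplasm and are phosphorylated when a receptor such as Toll-like receptor 4 (TLR4) has bound a microbial product. IRF1 is made anew after interferon gamma, NF-kB or STAT signals and activates its targets, while IRF2 binds the same elements and often represses them. IRF9 joins STAT proteins in the complex ISGF3, which carries the interferon signal to the interferon-stimulated response element (ISRE). IRF4 and IRF8 bind DNA weakly alone and pair with factors such as PU.1 or BATF, and IRF8 is required for the identity of microglia and other myeloid cells.

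Microglia, the macrophages of the brain parenchyma, were sorted from brains of male C57BL/6J mice by a gate of CD11b high, CD45 intermediate and Ly6c negative. Mice were injected into the peritoneum at 10 weeks of age and again 5 weeks later, and the brain was removed 3 h after the second injection, at 15 weeks. An injection was either 1 mg/kg lipopolysaccharide (LPS, L), the bacterial ligand of TLR4, or phosphate-buffered saline (PBS, P). From 1 week after the first injection the mice received either BLZ945 (B), an inhibitor of the receptor CSF1R that microglia need to survive, at 169 mg/kg per day by gavage for 5 days, or its vehicle. The 6 groups were LBL (LPS, BLZ945, LPS; n = 5), LL (LPS, vehicle, LPS; n = 5), PBL (PBS, BLZ945, LPS; n = 5), PL (PBS, vehicle, LPS; n = 4), PBP (PBS, BLZ945, PBS; n = 5) and PP (PBS, vehicle, PBS; n = 5). The microglia of LBL, PBL and PBP mice were cells that had grown back after the depletion, and no group carried a transgene. The study asked whether the effect of a first LPS on the response to a second outlasts the replacement of the cells. The labels do not say whether each library came from 1 mouse; the p-values therefore reflect only how far these samples spread.

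Total counts per library lay between 5670450 and 12671476. All 8 microglial markers were detected in every group, with a summed level of 34600 to 66900 CPM (counts scaled to library size) per library. Neutrophil markers stood apart in PBL: the 7 markers summed to 0.194 to 3.79 CPM in LBL, 0 to 31.0 in LL, 122 to 468 in PBL, 0.249 to 18.2 in PL, 0 to 6.52 in PBP and 0 to 7.85 in PP. All 7 were detected in PBL and in PL. Monocyte markers summed to 10.8 to 60.2 CPM in PBL and to at most 23.3 CPM in the other groups, with all 6 detected in PBL and in LL. Astrocyte markers, all 6 detected in each group, summed to 658 to 751 CPM in LBL, 726 to 875 in LL, 682 to 889 in PBL, 748 to 1020 in PL, 379 to 448 in PBP and 435 to 589 in PP, without overlap between LPS and PBS mice. Neuron markers summed to 70.7 to 171 CPM in LBL, 43.7 to 179 in LL, 94.8 to 186 in PBL, 20.5 to 40.0 in PL, 20.8 to 140 in PBP and 11.3 to 29.2 in PP. The part of these cells in the results was not tested. RNA quality numbers moved with the groups too, at 7.4 to 7.9 in PBL against 8.8 to 9 in 4 of the 5 PBP libraries and 7.4 in the other, and at 6.5 to 9.1 in PL against 8.6 to 9.1 in PP; their part was not tested. The libraries were sorted on 2 instruments over 5 days: all LBL, LL and PBL cells on the XDP, all PL and PP cells on the Astrios, and PBP cells on the Astrios except replicate 5.

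The sequences just upstream of the genes held different sets of the motifs searched. RefSeq windows (mouse build GRCm38.p6, 250 bases that end just before the transcription start) were found for all 8 members, 11 windows in all. Both strands were searched for the ISRE repeat (GAAANNGAAA), the STAT-binding gamma-activated site (GAS, TTCNNNGAA), a composite of a PU.1 and an IRF site (GGAANNGAAA) and the NF-kB consensus. The windows of Irf1, Irf2, Irf7 and Irf8 are shown because these 4 genes gave the largest or the most contrasting responses below. Matches are in capitals.
Irf1: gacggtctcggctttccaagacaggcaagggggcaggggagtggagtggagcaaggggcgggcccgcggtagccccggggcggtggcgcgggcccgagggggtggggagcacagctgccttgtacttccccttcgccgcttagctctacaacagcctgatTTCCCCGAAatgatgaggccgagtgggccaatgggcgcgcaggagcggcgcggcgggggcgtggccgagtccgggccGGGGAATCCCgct
Irf2: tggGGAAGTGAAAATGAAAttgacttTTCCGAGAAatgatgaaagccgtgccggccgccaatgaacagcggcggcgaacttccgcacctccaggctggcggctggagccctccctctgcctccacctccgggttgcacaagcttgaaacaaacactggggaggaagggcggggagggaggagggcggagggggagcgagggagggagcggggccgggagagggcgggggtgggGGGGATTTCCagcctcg
Irf7: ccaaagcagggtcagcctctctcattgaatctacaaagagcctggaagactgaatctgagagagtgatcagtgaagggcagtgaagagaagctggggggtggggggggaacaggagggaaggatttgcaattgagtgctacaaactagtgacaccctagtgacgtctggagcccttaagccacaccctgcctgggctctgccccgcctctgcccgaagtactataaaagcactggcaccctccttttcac
Irf8: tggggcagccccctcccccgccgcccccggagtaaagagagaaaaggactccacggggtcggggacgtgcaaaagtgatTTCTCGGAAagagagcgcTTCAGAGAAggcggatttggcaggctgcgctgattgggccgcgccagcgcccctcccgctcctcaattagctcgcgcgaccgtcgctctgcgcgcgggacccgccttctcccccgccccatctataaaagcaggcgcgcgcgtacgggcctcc
The Irf1 window, chr11:53769764-53770013 on the plus strand, held a GAS (TTCCCCGAA, 90 to 82 bases before the start) and an NF-kB match (GGGGAATCCC, 13 to 4 bases before it). The Irf2 window, chr8:46739495-46739744 on the plus strand, began with a composite match that overlaps an ISRE repeat (bases 247 to 238 and 241 to 232), followed by a GAS at 224 to 216 and an NF-kB match at 17 to 8. The Irf8 window, chr8:120736108-120736357 on the plus strand, held 2 GAS matches, at 171 to 163 and 153 to 145. No searched motif lay in the Irf7 window, chr7:141266425-141266674 on the minus strand, or in the remaining 7 windows. Over all 32851 RefSeq windows of this length, 2.98% held the ISRE repeat, 7.02% a GAS, 2.3% the composite and 7.25% the NF-kB consensus. A match is a description of these letters and not evidence of binding.

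Levels of the 8 genes were compared with each other per length, as CPM per kilobase of exon (exon lengths from GENCODE M21). After repeated LPS Irf8 and Irf5 led, at 67.2 and 61.0 CPM per kb in LBL and 58.6 and 52.6 in LL, with Irf1 at 23.0 in LBL and 18.3 in LL. In PBL microglia Irf1 had the highest mean, at 63.8 CPM per kb, with Irf8 at 62.3 and Irf5 at 58.2. In PL microglia Irf5, Irf8 and Irf1 lay close together at 59.4, 57.3 and 54.6 CPM per kb. In PP microglia Irf8 was the most abundant at 105 CPM per kb, followed by Irf5 at 76.1, Irf2 at 22.2, Irf9 at 20.2, Irf3 at 18.5 and Irf1 at 13, with Irf7 at 1.59 and Irf4 at 0.714. Irf4 and Irf7 rested on few reads, with 4 to 45 and 22 to 172 counts per library, and the other 6 genes on 268 or more.

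**Figure D1:**
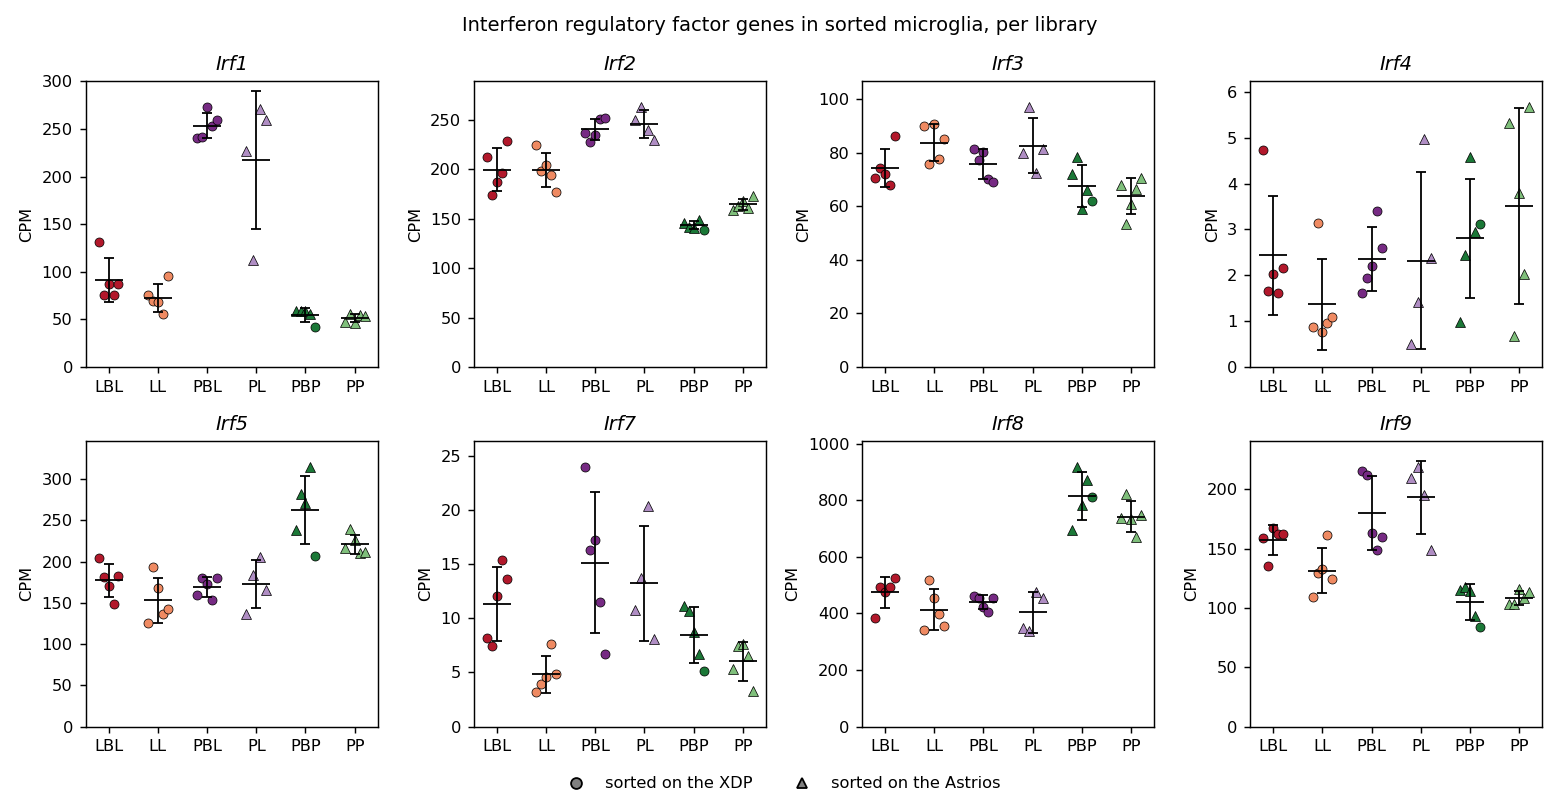
CPM of each of the 8 genes (vertical axis, linear from 0) in every library, by group on the horizontal axis. Points are libraries, circles sorted on the XDP and triangles on the Astrios, and bars give mean and SD. Irf1 stands high in PBL and PL and between 41.6 and 131 CPM in the other groups, while Irf8 stands high in PBP and PP and lies between 337 and 525 CPM in the 4 groups killed after LPS.

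After a single LPS injection 7 of the 8 genes were called in original microglia. In PL against PP, 5 were called higher and 2 lower (edgeR quasi-likelihood test, adjusted p under 0.05 over all genes), while 14.2% of all genes tested were called higher and 11.9% lower. The median log2 fold change of the 8 was 0.474, and of all genes -0.00087. In repopulated microglia, PBL against PBP, 4 were called higher and 2 lower, beside 21.5% of all genes higher and 21.5% lower, with medians of 0.455 and 0.005. These are bulk measurements, in which a gene made by fewer cells and a gene made at a lower level per cell cannot be told apart.

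Irf1, the inducible activator, had the largest LPS response of the family. It measured 227, 112, 271 and 259 CPM in PL microglia, against 47.6, 55.7, 46.1, 54.4 and 53.7 CPM in PP microglia. Every PL library lay above every PP library, with PL replicate 2 the lowest of its group by far. The log2 fold change was 2.08 ± 0.18 (SE, adjusted p = 1.71e-11), a 4.22-fold difference. In repopulated microglia it measured 241, 242, 273, 253 and 259 CPM in PBL against 58.9, 59.2, 58.4, 55.7 and 41.6 CPM in PBP, again without overlap. The log2 fold change there was 2.21 ± 0.17 (adjusted p = 1.25e-12). Within the sorting days that held both groups the log2 fold changes were 2.37 for PL against PP (2 and 5 libraries) and 2.63 for PBL against PBP (5 libraries and 1).

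Irf1 was lower where an LPS had been given 5 weeks before. It measured 76.1, 69.5, 68.2, 55.3 and 95.2 CPM in LL microglia, all below the 4 PL libraries given above, with a log2 fold change of -1.58 ± 0.18 (adjusted p = 1.4e-06). LL and PL were sorted on different instruments, and with the sorter as a term the value was -1.1 (adjusted p = 0.155). After depletion and regrowth LBL microglia had 131, 76.0, 86.9, 75.8 and 87.1 CPM, all below the 5 PBL libraries, with a log2 fold change of -1.47 ± 0.17 (adjusted p = 2.31e-07). The difference between these 2 effects, LBL minus PBL less LL minus PL, was 0.10 ± 0.24 on the log2 scale (adjusted p = 0.881). Irf1 was above the level of PBS mice in both arms, higher in LL than in PP by 0.50 ± 0.17 on the log2 scale (adjusted p = 0.0212), with overlapping ranges, and higher in LBL than in PBP by 0.73 ± 0.17 (adjusted p = 0.0011), without overlap. The LL against PP call was lost without PP replicate 3 (adjusted p = 0.0517) or LL replicate 5 (adjusted p = 0.0943). The comparisons of LL with PP and of LBL with PBP cross the sorters as well. With the sorter as a term the values were 0.98 for LL against PP (adjusted p = 0.085) and 1.13 for LBL against PBP (adjusted p = 0.0141).

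Irf2, the counterpart of IRF1 at the same elements, moved in the same direction by a smaller step. It had 250, 263, 240 and 230 CPM in PL against 159, 163, 168, 161 and 173 CPM in PP, and 237, 228, 235, 251 and 252 CPM in PBL against 146, 142, 141, 149 and 139 CPM in PBP. Neither pair of groups overlapped. The log2 fold changes were 0.58 ± 0.08 for PL against PP (adjusted p = 1.76e-06) and 0.75 ± 0.08 for PBL against PBP (adjusted p = 2.73e-09), and within shared sorting days 0.52 and 0.81. With repeated LPS it had 212, 174, 187, 196 and 229 CPM in LBL and 225, 198, 204, 194 and 177 CPM in LL. That was lower in LL than in PL, at -0.30 ± 0.08 (adjusted p = 0.046) and in LBL than in PBL, at -0.27 ± 0.08 (adjusted p = 0.0352), and 1 LBL library reached into the PBL range. Both calls are near the threshold: the first was lost in 7 of 9 fits that left out 1 library (adjusted p up to 0.135) and the second in 6 of 10 (up to 0.144). Both groups stayed above their PBS levels without overlap, LL over PP by 0.28 ± 0.08 (adjusted p = 0.00782) and LBL over PBP by 0.48 ± 0.08 (adjusted p = 2.12e-05).

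**Figure D2:**
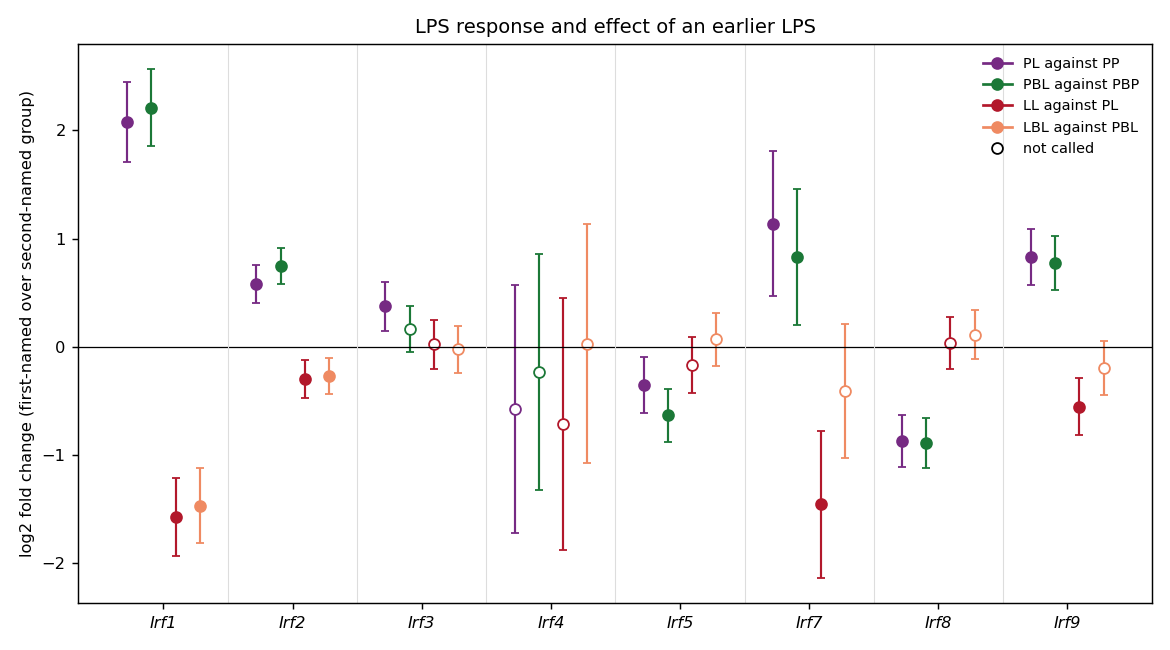
Log2 fold changes (vertical axis) of the 8 genes for PL against PP, PBL against PBP, LL against PL and LBL against PBL, from left to right within a gene. Filled points were called, open points were not, and bars are 95% confidence intervals. Irf1 shows the widest swing, from 2.21 in PBL against PBP to -1.58 in LL against PL, and Irf8 is called lower in PL against PP and PBL against PBP and not called in the other 2 comparisons.

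Among the factors activated by phosphorylation, Irf3 was called in 1 of the 2 single-LPS comparisons. IRF3 is the constitutive member that TLR4 reaches through the adaptor TRIF. It had 79.8, 97.0, 72.3 and 81.3 CPM in PL against 67.8, 53.3, 61.0, 66.3 and 70.4 CPM in PP, just above without overlap, for a log2 fold change of 0.37 ± 0.11 (adjusted p = 0.0104). That call was lost without PL replicate 2 (0.29, adjusted p = 0.0655) and within the shared sorting day (0.28, adjusted p = 0.137). In PBL it had 81.2, 77.3, 80.1, 70.3 and 69.1 CPM, against 71.9, 78.3, 58.8, 66.2 and 61.8 CPM in PBP, with overlapping ranges and a log2 fold change of 0.16 ± 0.10 (adjusted p = 0.204; 0.31 within the shared day). The repeated-LPS groups had 70.7, 74.2, 72.1, 67.9 and 86.2 CPM (LBL) and 89.9, 75.7, 90.5, 77.8 and 84.9 CPM (LL). Neither was called against its single-LPS group, at -0.03 ± 0.10 for LBL against PBL and 0.02 ± 0.11 for LL against PL (adjusted p = 0.936 and 0.95), though Irf3 was higher in LL than in PP by 0.39 ± 0.10 (adjusted p = 0.00391; 0.55 and adjusted p = 0.126 with the sorter as a term).

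Irf5, a factor that drives inflammatory cytokine genes downstream of MyD88, fell after LPS. It had 136, 184, 205 and 166 CPM in PL against 217, 239, 226, 210 and 212 CPM in PP, and 159, 180, 173, 153 and 180 CPM in PBL against 238, 282, 271, 315 and 207 CPM in PBP. All LPS libraries lay below all PBS libraries in both pairs. The log2 fold change was -0.36 ± 0.13 in PL against PP (adjusted p = 0.0325), and it was -0.64 ± 0.12 in PBL against PBP (adjusted p = 4.63e-05). The PL against PP call was lost without PP replicate 2, PP replicate 3, PL replicate 1 or PL replicate 4 (adjusted p up to 0.157). Within shared sorting days the values were -0.25 (adjusted p = 0.26) and -0.27 (adjusted p = 0.434), where PBP is its 1 XDP library, the lowest of that group.

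No effect of the earlier LPS on Irf5 was detectable. It had 204, 181, 170, 148 and 183 CPM in LBL and 126, 193, 168, 136 and 142 CPM in LL, overlapping the ranges of PBL and PL. The log2 fold changes were 0.07 ± 0.12 for LBL against PBL (adjusted p = 0.833) and -0.17 ± 0.12 for LL against PL (adjusted p = 0.531). Against PBS mice it was lower in both arms, at -0.57 ± 0.12 in LBL against PBP (adjusted p = 0.000341) and at -0.53 ± 0.12 in LL against PP (adjusted p = 0.000753). With the sorter as a term these were -0.23 (adjusted p = 0.555) and -0.11 (adjusted p = 0.84).

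Irf7, the interferon-induced member that amplifies type I interferon production, was scarce and variable. It had 10.8, 13.7, 20.4 and 8.07 CPM in PL against 5.33, 7.42, 7.59, 6.48 and 3.28 CPM in PP, without overlap, for a log2 fold change of 1.14 ± 0.32 (adjusted p = 0.00757). In PBL it had 24.0, 16.3, 17.2, 11.5 and 6.69 CPM, against 11.1, 10.7, 8.73, 6.71 and 5.13 CPM in PBP, with overlap, for a log2 fold change of 0.83 ± 0.30 (adjusted p = 0.0268). The first call was lost without PL replicate 3 (0.84, adjusted p = 0.073), the library with the lowest RNA quality number, 6.5, whose part in the result was not tested. The second was lost without PBP replicate 4 or 5 or PBL replicate 1 or 3 (adjusted p between 0.0551 and 0.117), and within the shared sorting day the value was 1.57 (adjusted p = 0.0918). Within its shared day PL against PP gave 1.24 (adjusted p = 0.0203).

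Irf7 was the 1 member called between repopulated and original cells after repeated LPS. LBL microglia had 8.20, 7.48, 12.1, 15.4 and 13.6 CPM, inside the PBL range, with a log2 fold change of -0.41 ± 0.30 against PBL (adjusted p = 0.503). LL microglia had 3.21, 3.91, 4.55, 7.61 and 4.82 CPM, all below the PL libraries, with a log2 fold change of -1.46 ± 0.33 against PL (adjusted p = 0.007). Set against each other, Irf7 was higher in LBL than in LL by 1.24 ± 0.31 (adjusted p = 0.0387), and only 1 LL library reached into the LBL range. The test of the difference between the 2 earlier-LPS effects gave 1.05 ± 0.44 (unadjusted p = 0.0233) and did not pass the correction over all genes (adjusted p = 0.281). With the sorter as a term that difference was 0.20 (adjusted p = 0.994). Both groups were sorted on the XDP, but 4 of 5 LBL libraries on day 1 and 4 of 5 LL libraries on day 2, and the part of the day in this result was not tested. The LBL against LL call was made in 3 of 10 fits that left out 1 library, with adjusted p between 0.0286 and 0.118; it was lost without LL replicate 1, 2, 3 or 5 or LBL replicate 3, 4 or 5. The LL against PL call was lost without PL replicate 3 (-1.14, adjusted p = 0.0715). The 7 markers of border-associated macrophages, all detected, summed to 11.8 to 24.6 CPM in LBL and 55.4 to 94.2 CPM in LL, and their part in the result was not tested.

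Irf9, the DNA-binding subunit of ISGF3, rose after a single LPS in both kinds of microglia. It had 209, 219, 195 and 149 CPM in PL against 103, 103, 116, 108 and 113 CPM in PP, and 215, 212, 163, 149 and 160 CPM in PBL against 115, 118, 114, 93.4 and 83.9 CPM in PBP. No LPS library overlapped its PBS group. The log2 fold changes were 0.83 ± 0.13 (PL against PP, adjusted p = 3.54e-06) and 0.77 ± 0.12 (PBL against PBP, adjusted p = 3.08e-06), and within shared sorting days they were 0.67 and 1.12.

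With repeated LPS, Irf9 measured 159, 135, 167, 162 and 162 CPM in LBL and was not called against PBL (-0.20 ± 0.12, adjusted p = 0.38). It measured 109, 129, 133, 161 and 124 CPM in LL and was lower than in PL, at -0.56 ± 0.13 (adjusted p = 0.00805), with 1 LL library inside the PL range. LBL stayed above PBP by 0.58 ± 0.12 (adjusted p = 0.000372; 0.90 and adjusted p = 0.00393 with the sorter as a term). LL was above PP by 0.27 ± 0.12, which edgeR did not call (adjusted p = 0.0819). It was called by DESeq2 (0.29, adjusted p = 0.0442), with only the groups compared (0.30, adjusted p = 0.0223) and without LL replicate 1 (0.33, adjusted p = 0.0422). The difference of the 2 earlier-LPS effects was 0.36 ± 0.17 (unadjusted p = 0.0473, adjusted p = 0.34) and became -0.04 with the sorter as a term (adjusted p = 0.999). LBL exceeded LL by 0.25 ± 0.12 (unadjusted p = 0.0408, adjusted p = 0.361).

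Irf8, the lineage factor and the most abundant member in PBS mice, fell after LPS in both kinds of microglia. It had 349, 337, 477 and 453 CPM in PL against 737, 824, 734, 669 and 747 CPM in PP, and 463, 454, 424, 404 and 453 CPM in PBL against 696, 919, 784, 870 and 812 CPM in PBP. The highest LPS library in each pair was well below the lowest PBS library. The log2 fold changes were -0.88 ± 0.12 (PL against PP, adjusted p = 3.38e-07) and -0.89 ± 0.11 (PBL against PBP, adjusted p = 3.99e-08), and within shared sorting days -0.67 and -0.87. After a second LPS Irf8 was still low, with 383, 494, 476, 493 and 525 CPM in LBL and 343, 517, 453, 399 and 355 CPM in LL. It was lower in LBL than in PBP, at -0.78 ± 0.11 (adjusted p = 8.58e-07) and in LL than in PP, at -0.84 ± 0.11 (adjusted p = 2.36e-07). Neither earlier-LPS effect was called, at 0.11 ± 0.11 for LBL against PBL (adjusted p = 0.654) and 0.03 ± 0.12 for LL against PL (adjusted p = 0.928). The summed microglial markers moved the same way, at 46200 to 51200 CPM in PL against 56800 to 66900 in PP and 34600 to 47400 CPM in PBL against 47000 to 64800 in PBP; the part of cell number in the fall of Irf8 and Irf5 was not tested. The list of B and plasma cell markers also summed lower, at 313 to 351 CPM in PL against 766 to 946 in PP and 155 to 261 CPM in PBL against 468 to 730 in PBP, and its part in the result was not tested.

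Irf4, which shares the PU.1 partner of IRF8 and is best known from lymphocytes and dendritic cells, was near the lower end of what these libraries could measure. It had 0.498, 1.43, 4.97 and 2.38 CPM in PL against 5.33, 0.674, 3.80, 2.04 and 5.67 CPM in PP, and 1.61, 1.95, 2.21, 3.41 and 2.60 CPM in PBL against 0.973, 2.44, 4.57, 2.95 and 3.11 CPM in PBP. The repeated-LPS values were 4.73, 1.65, 2.02, 1.61 and 2.17 CPM in LBL and 0.876, 3.14, 0.758, 0.968 and 1.1 CPM in LL. The groups of each comparison overlapped, and no comparison called Irf4. The nearest was LL against PP, at -1.29 ± 0.53 (adjusted p = 0.0592), which became -1.87 (adjusted p = 0.0126) without LL replicate 2. At this depth its standard errors, 0.55 in PL against PP and 0.53 in PBL against PBP on the log2 scale, were several times those of the abundant members.

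Over the earlier-LPS comparisons, 4 of the 8 genes were called lower and none higher in LL against PL, beside 2.03% of all genes called lower and 0.752% higher. In LBL against PBL, Irf1 and Irf2 were called lower and none higher, beside 4% of all genes lower and 2.74% higher. The medians over the 8 genes were -0.428 for LL against PL, with 0.012 over all genes, and -0.112 for LBL against PBL, with 0.013 over all genes. LL and PL were sorted wholly on different instruments, so the earlier LPS and the sorter cannot be told apart there. With the sorter as a term, which rests on a single PBP library, none of the 4 calls remained: the log2 fold changes became -1.1 for Irf1 (adjusted p = 0.155), -0.24 for Irf2 (adjusted p = 0.549), -0.61 for Irf7 (adjusted p = 0.737) and -0.16 for Irf9 (adjusted p = 0.82). Over all genes, that term left 0.00601% called higher and 0.0601% lower in LL against PL. LBL and PBL were both sorted on the XDP, so the term could not test their difference, and their calls were the same with it. LBL was sorted on days 1 and 2 and PBL on day 3. The earlier LPS and the sorting day cannot be told apart there. In LL against PP, which crosses the sorters as well, 3 genes were called higher and 2 lower (18.9% and 13.2% of all genes), and only Irf8 with the sorter as a term. In LBL against PBP 3 were called higher and 2 lower (14.6% and 13.6% of all genes), and 4 of these 5 with the sorter as a term, Irf5 being the exception.

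Few differences in these 8 genes were found between repopulated and original microglia. In PBP against PP no member was called by edgeR or DESeq2, 2 of the 8 had an unadjusted p under 0.05, and 0.289% of all genes were called higher and 0.241% lower. Irf2 was the clearer of the pair: every PBP library lay below every PP library, at -0.20 ± 0.08 (unadjusted p = 0.0191, adjusted p = 0.301). Irf5 was at 0.25 ± 0.12 (unadjusted p = 0.0406, adjusted p = 0.384). PBP was sorted on days 3 and 4 and PP on day 5, and the part of the day was not tested. In PBL against PL no member was called by either tool or had an unadjusted p under 0.05, whereas 11% of all genes were called higher and 11.1% lower. The adjusted p of the members lay between 0.368 and 0.989. Irf1 differed most, by 0.22 ± 0.17, and by 0.0038 without PL replicate 2. PBL and PL also differed in sorter.

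In LBL against LL Irf7 was the 1 member called, higher in LBL, beside 0.487% of all genes called higher and 0.722% lower. The difference between the arms was also tested directly. For the first LPS response, PBL minus PBP less PL minus PP, edgeR called none of the 16632 genes tested (0% higher and 0% lower). DESeq2 called 0.214% higher and 0.58% lower, and edgeR without the filter on low counts 0.0155% and 0.0186%, with no member among them. In the main fit no member had an unadjusted p under 0.05 for this difference, with 2120 genes under that level. This difference was 0.13 ± 0.24 (SE) for Irf1 and -0.02 ± 0.16 for Irf8 on the log2 scale. For the earlier-LPS effect, edgeR called 0.012% of all genes in each direction, and DESeq2 called 0.0842% higher and 0.102% lower. No member was called by either tool, with Irf7 and Irf9 as given above the 2 members under an unadjusted p of 0.05.

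**Figure D3:**
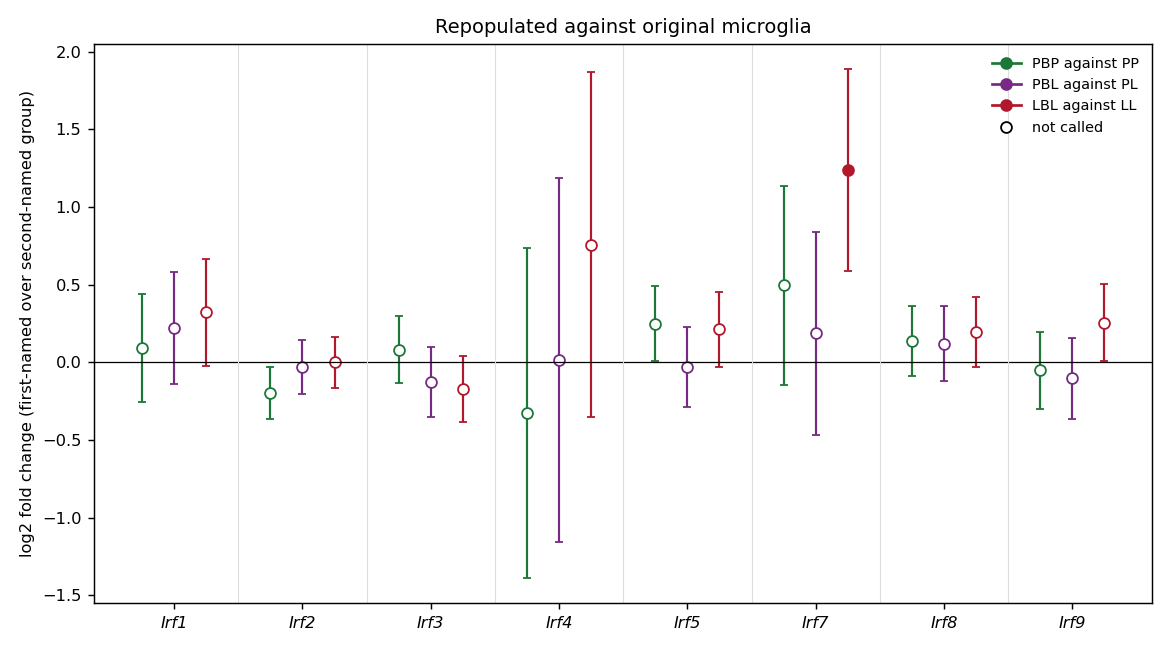
Log2 fold changes (vertical axis) of the 8 genes for repopulated against original microglia: PBP against PP, PBL against PL and LBL against LL, from left to right within a gene. Filled points were called, open points were not, and bars are 95% confidence intervals. The 1 filled point is Irf7 in LBL against LL, at 1.24.

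Ordered by group mean, Irf1 ran PBL, PL, LBL, LL, PBP, PP, with 254 ± 13.3, 217 ± 72.6, 91.4 ± 22.9, 72.9 ± 14.6, 54.8 ± 7.47 and 51.5 ± 4.36 CPM (SD), and each neighbour overlapped the next in range. Irf2 ran PL, PBL, LL, LBL, PP, PBP, and had gaps between PBL and LL, between LBL and PP and between PP and PBP. Irf3 ran LL, PL, PBL, LBL, PBP, PP, within 83.8 ± 6.81 and 63.8 ± 6.8 CPM and with all neighbours overlapping. Irf9 ran PL, PBL, LBL, LL, PP, PBP and Irf7 ran PBL, PL, LBL, PBP, PP, LL, both with all neighbours overlapping. Irf5 ran PBP, PP, LBL, PL, PBL, LL and Irf8 ran PBP, PP, LBL, PBL, LL, PL, and each of these had a single gap, between PP and LBL. That gap separates the mice killed after PBS from those killed after LPS. Irf4 ran PP, PBP, LBL, PBL, PL, LL, between 3.5 ± 2.14 and 1.37 ± 0.998 CPM, with all neighbours overlapping.

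Across the 29 libraries, Irf5 and Irf8 had a Pearson r of 0.854 between their log2 CPM, Irf1 and Irf2 of 0.823, and Irf2 and Irf8 of -0.833. Irf7 was most like Irf9 among the members (0.706). These values describe libraries that fall into groups and share treatment and sorter, and carry no test. Over all genes past the filter, Irf1 was most like Tlr2 (0.971), the receptor for bacterial lipoproteins, with Art3 (0.971) and Pde4b (0.967), a cyclic AMP phosphodiesterase, next. Irf7 was most like Usp18 (0.835), the protease that removes ISG15 and restrains the interferon receptor, Rtp4 (0.817) and Ebi3 (0.768), a cytokine subunit. Irf9 was most like Irgm1 (0.899), an interferon-inducible GTPase, Ifi207 (0.874) and Slfn5 (0.867). Irf8 was most like Zfp467 (0.958), Zfp69 (0.938) and Cmtm7 (0.926), and Irf5 most like Zfp385a (0.929), Mfng (0.905) and the microglial marker Tmem119 (0.9). Irf2 was like Snx10 (0.94) and Dusp16 (0.938), among others. Irf3 and Irf4 had looser partners, with Nip7 (0.789), Mllt11 (0.784) and Utp4 (0.779) for Irf3 and Gm7694 (0.697), Mfsd13a (0.666) and Snd1 (0.648) for Irf4.

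**Figure D4:**
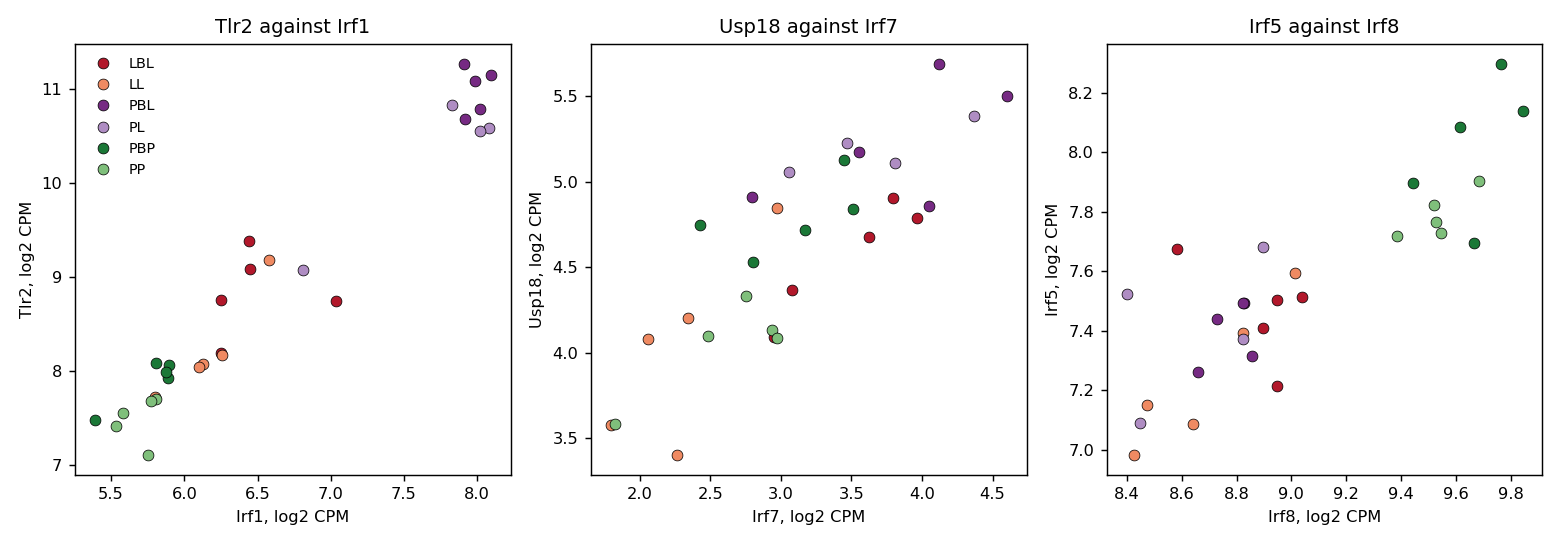
Log2 CPM of 3 pairs of genes, 1 point per library coloured by group: Tlr2 against Irf1, Usp18 against Irf7, and Irf5 against Irf8, each with the first-named gene on the vertical axis. The Pearson r over 29 libraries is 0.971, 0.835 and 0.854, and PL replicate 2, at 112 CPM for Irf1, lies apart from the other PL libraries in the first panel.

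Genes around the factors were read as lists, chosen with earlier results of these data known, without a set test. The lists overlap. Ifih1 counts as a sensor and as an ISRE-driven gene. Usp18 counts as an ISRE-driven gene and as a brake, and Socs1 as an IRF1 target and as a brake. Upstream of IRF3, IRF5 and IRF7, 22 of 23 listed sensors and signalling genes were measured. For each list, the share of all genes called after a single LPS was 14.2% higher and 11.9% lower in PL against PP and 21.5% each way in PBL against PBP. With the sorter as a term the shares were 15.3% and 12.7% in PL against PP and 7.4% and 5.98% in PBL against PBP. After a single LPS, 10 sensors were called higher and 5 lower in PL against PP (median log2 fold change 0.331), and 13 higher and 7 lower in PBL against PBP (median 0.498). In PBL against PBP these were 9 higher and 3 lower with the sorter as a term. Ikbke, a kinase that phosphorylates IRF3 and IRF7, rose by 3.63 ± 0.89 in PL against PP (adjusted p = 0.00217) and by 2.74 ± 0.76 in PBL against PBP (adjusted p = 0.00391). Its levels were near the lower end of what these libraries could measure. They were 0.397 to 4.97 CPM in PL against 0 to 0.405 in PP, and 1.08 to 6.52 CPM in PBL against 0 to 1.86 in PBP. Both pairs overlapped. Ticam1, which encodes TRIF, rose by 2.03 ± 0.22 in PL against PP, and Cgas, the cytosolic DNA sensor, by 2.07 ± 0.12 in PBL against PBP. Tlr4 itself fell: it averaged 77.3 ± 16.5 CPM in PL against 161 ± 17.7 CPM in PP, and 51.3 ± 7.55 CPM in PBL against 167 ± 34 CPM in PBP, with log2 fold changes of -1.06 ± 0.15 and -1.70 ± 0.15. Slc15a4, the endosomal scaffold through which IRF5 is activated, was lower in PL than in PP (-0.79 ± 0.17), and Mavs, the adaptor of the RNA sensors, was lower in PBL than in PBP (-1.35 ± 0.16).

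Of the 10 interferon receptor, JAK and STAT genes tested, 5 were called higher and 1 lower in both first-LPS comparisons (medians 0.275 in PL against PP and 0.28 in PBL against PBP). Stat2, the partner of IRF9 in ISGF3, averaged 97.5 ± 26.6 CPM in PL against 25.6 ± 5.67 CPM in PP and 156 ± 13.9 CPM in PBL against 30.8 ± 6.81 CPM in PBP. Its log2 fold changes were 1.93 ± 0.17 and 2.34 ± 0.16 (adjusted p = 2.67e-11 and 5.84e-14). Stat3 rose by 2.23 ± 0.09 in PL against PP and by 2.52 ± 0.09 in PBL against PBP. The genes called lower were Tyk2 in PL against PP (-0.67 ± 0.17) and Ifngr1 in PBL against PBP (-0.47 ± 0.10). Ifnb1, which encodes interferon beta, did not pass the filter: it averaged 0.0979 ± 0.152 CPM in LBL, 0.376 ± 0.573 CPM in PBL and 0.341 ± 0.0714 CPM in PL and had no count in LL, PBP and PP.

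Targets read by the factors through an ISRE had only higher calls after a single LPS. Of 21 such antiviral genes tested, 14 were called higher and 0 lower in PL against PP (median 1.31) and likewise 14 and 0 in PBL against PBP (median 1.1). Cxcl10, a chemokine for T cells, averaged 391 ± 219 CPM in PL against 1.56 ± 0.509 CPM in PP and 698 ± 134 CPM in PBL against 2.25 ± 1 CPM in PBP. The log2 fold changes were 7.95 ± 0.72 (adjusted p = 3.94e-09) and 8.26 ± 0.69 (adjusted p = 7.79e-10). Ccl5, another chemokine, rose by 5.34 ± 0.43 in PBL against PBP. Oas2, an RNA-sensing synthetase, averaged 1.84 ± 1.14 CPM in PL and had no count in PP. Of 19 IRF1 targets tested, 8 were called higher and 2 lower in PL against PP (median 0.261) and 9 higher and 6 lower in PBL against PBP (median 0.286). The guanylate-binding protein gene Gbp5 rose by 3.70 ± 0.28 and 4.94 ± 0.29 in these comparisons, and Il12b, a subunit of the interleukin-12 family, averaged 56.4 ± 28.9 CPM in PL with no count in PP. The immunoproteasome genes Psmb9 (-0.56 ± 0.15) and Psmb8 (-0.28 ± 0.10) were lower in PL than in PP, and Psmb9 (-0.76 ± 0.14) and Psmb10 (-0.51 ± 0.09) were lower in PBL than in PBP. Within the shared sorting day of PL against PP, 8 IRF1 targets were called higher and 0 lower. Of all genes, that fit called 11.8% higher and 8.6% lower. With the sorter as a term, 9 IRF1 targets were called higher and 0 lower in PBL against PBP, beside 7.4% and 5.98% of all genes. In PL against PP 3 were called lower with that term, beside 12.7% of all genes. The ISRE-driven genes called higher in PBL against PBP numbered 9 with the sorter as a term.

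Among 10 tested partners and corepressors, 4 were called higher and 1 lower in PL against PP (median 0.406), and 4 higher and 3 lower in PBL against PBP (median 0.155). Batf, which pairs with IRF4 and IRF8 at AP-1 composite sites, averaged 102 ± 16.1 CPM in PL against 11.9 ± 1.01 CPM in PP and 93.4 ± 10 CPM in PBL against 9.5 ± 1.01 CPM in PBP (log2 fold changes 3.10 ± 0.13 and 3.29 ± 0.13). Runx1 rose by 2.47 ± 0.09 and 2.55 ± 0.09, while Ikzf1 was lower in PL than in PP (-0.33 ± 0.11) and Cebpa (-0.68 ± 0.13) and Batf3 (-0.50 ± 0.18) were lower in PBL than in PBP. Of 11 brakes on IRF and interferon signalling, 6 were called higher and 1 lower in both comparisons (medians 0.874 and 1.28). Socs3, the inhibitor of cytokine receptor kinases, averaged 1170 ± 323 CPM in PL against 12.9 ± 2.39 CPM in PP, a log2 fold change of 6.50 ± 0.22, and rose by 6.60 ± 0.22 in PBL against PBP. Tnfaip3, which encodes A20, rose by 3.06 ± 0.36 and 2.97 ± 0.34, and Ptpn6, a phosphatase, was lower, at -0.48 ± 0.12 and -0.94 ± 0.12.

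Under repeated LPS most calls on these lists were lower. In LL against PL no gene of the 6 lists was called higher, and 10 of 21 ISRE-driven genes (median -1.48), 5 of 19 IRF1 targets (-0.279), 4 of 22 sensors (-0.262), 4 of 11 brakes (-0.258), 3 of 10 receptor and STAT genes (-0.296) and 1 of 10 partners (-0.164) were called lower. In LBL against PBL 12 of 21 ISRE-driven genes (median -1.19), 7 of 19 IRF1 targets (-0.402), 4 of 11 brakes (-0.397), 3 of 10 receptor and STAT genes (-0.232) and 1 of 10 partners (-0.069) were called lower with none higher, and the sensors had 7 lower and 3 higher of 22 (median -0.0712). Over all genes the medians were 0.012 and 0.013. Of all genes, 0.752% were called higher and 2.03% lower in LL against PL, and 2.74% and 4% in LBL against PBL. With the sorter as a term, no list gene was called in LL against PL, beside 0.00601% of all genes higher and 0.0601% lower. In LBL against PBL, 13 ISRE-driven genes and 9 IRF1 targets were called lower, beside 3.39% of all genes higher and 4.61% lower. LBL and PBL were both sorted on the XDP, so the term could not test that comparison.

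Cxcl10 averaged 19 ± 19.7 CPM in LL, lower than in PL, at -4.35 ± 0.56 (adjusted p = 2.75e-05), and 25.1 ± 15.6 CPM in LBL, lower than in PBL, at -4.82 ± 0.56 (adjusted p = 2.66e-06). Ccl5 was lower in LL than in PL, at -2.85 ± 0.38 and in LBL than in PBL, at -3.37 ± 0.38, and Il12b at -2.88 ± 0.69 and -3.58 ± 0.67. The A20 gene Tnfaip3 averaged 35.7 ± 14.3 CPM in LL and 46.1 ± 14.1 CPM in LBL, where PBP had 51.5 ± 8.56 CPM and PP 37.1 ± 6.81 CPM, and was lower in LL than in PL, at -3.11 ± 0.36 and in LBL than in PBL, at -3.14 ± 0.35. Batf was lower in LL than in PL, at -0.52 ± 0.12, and in LBL than in PBL, at -0.51 ± 0.12. Usp18 was lower in LL than in PL (-1.09 ± 0.22, adjusted p = 0.002), as were Cd14 (-0.89 ± 0.13), Ifih1 (-0.82 ± 0.20), Ifngr2 (-0.46 ± 0.10) and Gbp2 (-1.81 ± 0.28). In LBL against PBL Stat2 (-0.53 ± 0.15), Traf3 (-1.24 ± 0.36), Tank (-0.85 ± 0.14) and Socs1 (-2.32 ± 0.50) were lower. Tlr4 (0.89 ± 0.15, adjusted p = 9.36e-05) and Slc15a4 (0.68 ± 0.16, adjusted p = 0.0064) were higher in LBL than in PBL.

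**Figure D5:**
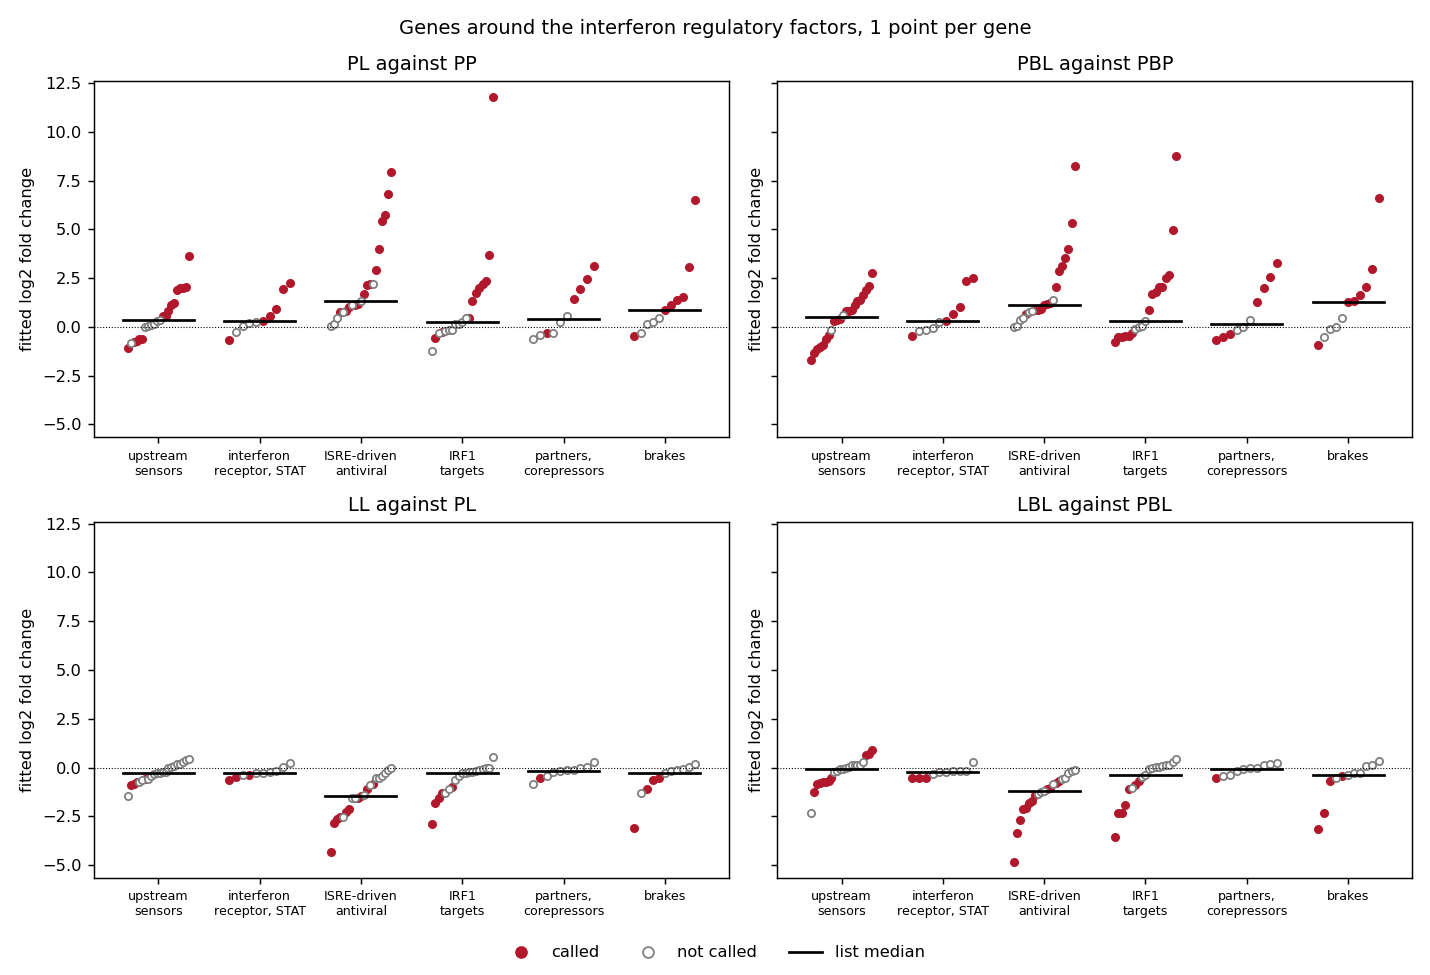
Fitted log2 fold changes (vertical axis) of every tested gene of the 6 lists (horizontal axis) in PL against PP, PBL against PBP, LL against PL and LBL against PBL. Red points were called, open points were not, and lines are list medians. The ISRE-driven list has medians of 1.31 and 1.1 in the first 2 panels and -1.48 and -1.19 in the others; Oas2 and Il12b have no count in PP, so their height in the first panel depends on the fit and is not a measured fold.

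Between repopulated and original microglia, edgeR called no gene of these lists in PBP against PP, where the median of the ISRE-driven list was 0.697 and of all genes 0.04. DESeq2 called 3 ISRE-driven genes, 1 receptor or STAT gene, 1 IRF1 target and 1 brake there, all higher in PBP. Of all genes it called 1.11% higher and 0.553% lower. With the sorter as a term 1 sensor was called higher, beside 0.228% of all genes higher and 0.168% lower. In PBL against PL, where 11% of all genes were called higher and 11.1% lower, 1 of 21 ISRE-driven genes, 3 of 10 receptor and STAT genes, 5 of 19 IRF1 targets, 2 of 22 sensors and 2 of 11 brakes were called higher, and 4 IRF1 targets, 2 sensors and 2 brakes lower. These groups were sorted on different instruments. With the sorter as a term no list gene was called, beside 0% of all genes higher and 0.018% lower. In LBL against LL edgeR called 2 IRF1 targets, both higher in LBL, beside 0.487% of all genes higher and 0.722% lower. DESeq2 called 3 higher and 1 lower of these targets and 1 receptor or STAT gene higher, beside 1.67% of all genes higher and 2.19% lower. With the sorter as a term 2 targets were higher and 1 lower, with 1 ISRE-driven gene and 1 receptor or STAT gene higher. That fit called 0.722% of all genes higher and 1.26% lower. Usp18, the gene most like Irf7, averaged 23.9 ± 5.24 CPM in LBL and 17.1 ± 7.19 CPM in LL, 38.1 ± 9.8 CPM in PBL and 36.5 ± 3.77 CPM in PL, and 27.7 ± 4.33 CPM in PBP and 16.5 ± 2.97 CPM in PP.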

How the data were processed

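Bulk RNA sequencing of poly(A) RNA from sorted mouse microglia was deposited as read counts per gene. The authors deposited whole-number counts that were not normalized. The submitters' processing notes name FastQC 0.11.9, cutadapt 2.10, TopHat, SAMtools 1.10, Picard 2.13.2, HTSeq 0.11.0 and the build GRCm39, without role or order. Annotation release and strandedness were not given in the sources used here, and reads from a gene antisense to a member could therefore count towards it. The deposited score of RNA quality (RQN, higher is better) lay between 6.5 and 9.1.

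Groups come from the sample titles. The 56 pairs of libraries of one group differed by more than sampling noise (chi-square per degree of freedom 5.47 to 32.5), so each library counted as 1 replicate. In R 4.3.3, edgeR 4.0.16 (filterByExpr, TMM scaling, robust quasi-likelihood fit, 1 coefficient per group, 29 libraries, 23 residual degrees of freedom) tested 16632 of 36982 genes. P-values were adjusted by Benjamini-Hochberg over all genes tested, and an adjusted p under 0.05 was a call. Fold changes are log2 with standard errors, and CPM values use TMM-scaled totals. Lengths are merged exons of GENCODE M21 and promoter windows are from RefSeq on GRCm38.p6, an older build than that of the counts, matched by symbol. The procedure was tested on simulated counts.

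The members and the gene lists were chosen with earlier results of these data known, and Rigi, on the sensor list, was not matched under that symbol. Named beside the members are up to 2 called genes in each direction per list with the largest log2 fold change, in PL against PP, PBL against PBP, LL against PL and LBL against PBL, and the 3 genes with the highest Pearson r to each member. Ifnb1 was named outside this rule, after its values were seen. A few genes that the rule picks are not reported here. Alternatives were RLE scaling, no filter on low counts, DESeq2 1.42.0, only the groups compared, the sorter as a covariate, a replicate block, libraries of a shared sorting day, and each library left out.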

Additional observations from a re-analysis of the deposited data

Results flagged for a closer look

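Of 48 sets of 1 gene in 1 group, 5 held a library far from the others of its group by Dixon's criterion, which chance alone passes in about 1 set in 20. Irf1 was at 131 CPM in LBL replicate 1, where the other LBL libraries had 75.8 to 87.1 CPM. Irf4 was high in the same library, at 4.73 CPM against 1.61 to 2.17 CPM in the others. Irf1 was at 41.6 CPM in PBP replicate 5, the 1 PBP library sorted on the XDP, where the others had 55.7 to 59.2 CPM. Irf4 was at 3.14 CPM in LL replicate 2, with 0.758 to 1.1 CPM in the others. Irf9 was at 135 CPM in LBL replicate 2, with 159 to 167 CPM in the others.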

How the results depend on the processing

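Over the 7 alternatives and the fits without 1 library, 1541 log2 fold changes of single members were recomputed. Of these, 1481 stayed on their side of the threshold, 54 lost their call, 6 gained one and 0 reversed; 72 of the 1481 changed sign without being called in either setting. The calls of Irf1, Irf2, Irf8 and Irf9 in PL against PP and in PBL against PBP held under every one of these alternatives and without any 1 library. The call of Irf1 in LBL against PBL held under the 6 alternatives run for it and without any 1 library. LBL and PBL shared no sorting day, so a fit within a day could not be run there. The number of members called in LBL against PBL was 1 in place of 2 without the filter on low counts and with only the groups compared. The same settings lost Irf2 in LL against PL (adjusted p = 0.15 and 0.161), and the unfiltered fit lost Irf2 in LL against PP (adjusted p = 0.0597). With the sorter as a covariate 0 members were called in LL against PL in place of 4, and 1 in LL against PP in place of 5. Of all genes, that setting called 0.00601% higher and 0.0601% lower in LL against PL. In LL against PP it called 4.79% higher and 2.31% lower. The sorter term rests on PBP replicate 5. Leaving out 1 library at a time gave 0 to 1 members called in LBL against LL, 1 to 2 in LBL against PBL and 2 to 4 in LL against PL, the last with 2 without PL replicate 3. With the replicate block 3 members were called in LL against PL, Irf2 being lost (-0.31, adjusted p = 0.0509), and it changed no other call. Same-numbered libraries showed no clear tendency to deviate together (median r 0.0131 over 70 pairs, -0.311 to 0.369), with a median of 0.000862 over 280 other pairs. The main fit therefore did not pair samples by number, though a median r cannot exclude a weak pairing. Precision was lowest for Irf4 and Irf7, with as few as 4 and 22 counts in a library.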
